A study of Mus musculus with 18 samples.

Results

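Mammary tumours of parous Snai2 knockout (KO) mice were compared between mice with metastasis and mice without it. The comparison takes the arrays whose labels give both KO genotype and parous history, which are 6 of the 18 arrays in the series, 3 with metastasis and 3 without. Arrays 2 and 3 with metastasis were nearly identical and were averaged, so the comparison rests on 2 samples against 3, among 17 samples in all. All 6 mice carried the neu (rat Erbb2) transgene of the FVB/N-Tg(MMTVneu)202Mul/J line, in which the MMTV promoter drives expression mainly in mammary epithelium, and all lacked Snai2 through the B6;129S1-Snai2tm2Grid/J allele. These alleles come from FVB/N and B6;129S1 stocks, and the labels give neither the resulting background nor the ages of the mice. Metastasis status describes the mouse. The RNA came from the mammary tumour, described in the labels as luminal and ERBB2 positive, with each array a biological replicate. The other 12 arrays are tumours of KO nulliparous mice with metastasis (1) and without (3), and of wild-type (WT) parous (4) and nulliparous (4) mice, all WT mice having metastasis.

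Snai2 encodes the zinc finger repressor Slug, a member of the Snail family. These factors bind E-box sequences and repress epithelial genes such as Cdh1, which encodes the adhesion molecule E-cadherin, during epithelial-mesenchymal transition (EMT). In the mammary gland Slug is known mainly from basal cells, whereas tumours of MMTV-neu mice are of luminal type and spread mostly to the lung. Since no tumour compared here had a working Snai2, the comparison asks which transcripts accompany metastasis in its absence.

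On the log2 scale of the array, Krt8 stood at 13.07 to 13.32, Krt18 at 12.78 to 13.36, Epcam at 12.63 to 12.81 and Erbb2 at 12.62 to 12.91 in the 6 arrays, all at or above the 99.0 percentile of genes. The basal keratins Krt5 (6.43 to 7.99) and Krt14 (6.93 to 7.87) were dim. The Snai2 probe set read 6.60, 6.67 and 6.50 with metastasis and 6.74, 6.48 and 6.28 without, never above the 29.3 percentile of genes. The labels do not say whether this probe set lies inside the deleted part of the gene, so it does not check the genotype. Neither Snai2 (log2 difference 0.09, SE 0.17) nor Erbb2 (0.08, SE 0.12) differed beyond its error.

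The 6 tumours did not sort by metastasis status. Across the 10252 brighter genes (mean log2 8 or more), the SD of the log2 difference between arrays 2 and 3 with metastasis was 0.102, and 1 gene differed by more than 2-fold. The next closest of all 153 pairs of arrays had an SD of 0.285. Metastatic tumour 1 stood 0.521 and 0.524 from arrays 2 and 3 of its own group, but 0.410 and 0.397 from tumours 1 and 3 without metastasis. Among tumours without metastasis, numbers 1 and 3 were 0.380 apart, while number 2 stood 0.596 and 0.593 from them. The widest of all 153 pairs was metastatic tumour 1 against tumour 2 without metastasis, at 0.705, with 1251 genes differing by more than 2-fold. For some results below, values without metastatic tumour 1, the averaged pair or tumour 2 without metastasis are also given.

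**Figure D1:**
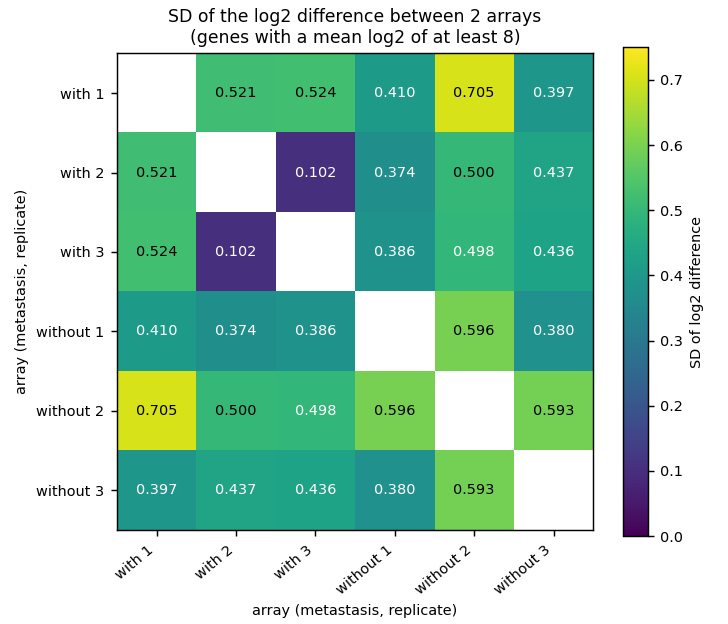
Heat map of the SD of the log2 difference between each pair of the 6 arrays (with or without metastasis, replicates 1 to 3 on both axes), across genes averaging log2 8 or more. Arrays 2 and 3 with metastasis differ by 0.102, and every pair with array 2 without metastasis lies between 0.498 and 0.705.

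No gene passed an adjusted p of 0.05 (limma, Benjamini-Hochberg over 19938 genes). The count called was 0 (0%), with a smallest adjusted p of 0.967, and every value of this contrast named below has an adjusted p of 0.967 or more unless another is given. At an unadjusted p under 0.05 there were 805 genes (4.04%), of which 318 (1.59%) were higher and 487 (2.44%) lower with metastasis. The 6 arrays did not overlap between the groups for 2019 genes (10.1%), 615 of them higher (3.08%) and 1404 lower (7.04%). The median log2 difference over all genes was -0.03, with 38.9% of genes above 0 and 61.1% below. That tilt depends on the scaling: centred on array medians, the genes with an unadjusted p under 0.05 split into 726 higher and 173 lower, and after another quantile normalization into 534 and 292. The counts per list below are on the deposited scale. Of the 38 lists, 5 had mean levels that did not overlap between the groups.

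Among genes whose arrays did not overlap, the 12 with the smallest p in the higher direction were Esd, Rab2b, Zfp931, Hsf2bp, St3gal6, Gdap10, Tiparp, Map3k19, Sectm1a, Thoc1, Map3k8 and Rpl24. None passed the test. Tiparp, an ADP-ribosyltransferase known as a target of the aryl hydrocarbon receptor, read 10.38, 10.26 and 10.21 in the 3 arrays with metastasis and 8.87, 8.64 and 8.85 in those without. The groups were far apart and tight, and the log2 difference was 1.52 (SE 0.40, unadjusted p 0.00219), a 2.87-fold higher level. Sectm1a, which encodes a secreted and transmembrane protein, read 10.74, 9.84 and 9.98 against 8.29, 8.92 and 8.45, a log2 difference of 1.77 (SE 0.47) or 3.41-fold. It was highest in metastatic tumour 1. The difference was 1.36 without that tumour and 2.19 without the pair.

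Zfp931, a zinc finger gene, stood at 8.95, 8.40 and 8.57 against 7.64, 6.92 and 7.90 (difference 1.23, SE 0.31). Hsf2bp, whose product binds BRCA2 in meiotic recombination, stood at 8.36, 7.57 and 7.70 against 7.41, 6.79 and 7.08 (difference 0.90, SE 0.23). The sialyltransferase gene St3gal6 stood at 8.99, 8.63 and 8.62 against 7.73, 8.14 and 8.09 (difference 0.82, SE 0.21). The gap between the groups was smaller than the spread within either group for Zfp931 and Hsf2bp, and the Hsf2bp difference was 0.54 without metastatic tumour 1. Map3k8, the kinase Tpl2 of the MAPK cascade, had a difference of 0.72 that came mostly from metastatic tumour 1 and was 0.34 without it. Differences for the remaining genes ranged from 0.36 for the ribosomal protein gene Rpl24 to 0.87 for Gdap10, with Esd (esterase D) at 0.41, the Rab GTPase gene Rab2b at 0.47, Map3k19 at 0.38 and Thoc1 (mRNA export) at 0.41.

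In the lower direction the 12 were Gart, Lrrk1, Kiss1r, Trpm3, Zc3h12c, Adgrg1, Vars2, Igdcc4, Mir697, Heatr5a, Sec61a1 and Sertad4. Trpm3, a cation channel of the melastatin TRP family, showed the widest separation, with 8.38, 7.15 and 7.10 in the arrays with metastasis and 10.22, 10.60 and 11.15 in those without. Its log2 difference was -2.91 (SE 0.65, unadjusted p 0.000627), which is 7.50-fold higher without metastasis. It was -3.54 without metastatic tumour 1 and -2.28 without the pair. Kiss1r encodes the receptor of kisspeptin, the peptide product of the metastasis suppressor gene Kiss1. Kiss1r read 8.29, 8.28 and 8.15 against 8.87, 8.81 and 8.80, a log2 difference of -0.57 (SE 0.12, unadjusted p 0.000479). Its groups were the most compact of this set, and leaving out any sample moved the difference only between -0.61 and -0.53. Its ligand gene Kiss1 was dim and overlapped, at 7.69, 7.70 and 7.56 against 8.02, 7.61 and 7.75.

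Gart, a trifunctional enzyme of purine synthesis, had the smallest unadjusted p in either direction, 0.000112, with 9.89, 9.53 and 9.59 against 10.47, 10.42 and 10.20 (difference -0.64, SE 0.12). Lrrk1, a kinase related to LRRK2, read 8.98, 9.05 and 9.02 against 9.33, 9.54 and 9.41 (difference -0.42, SE 0.08). Zc3h12c, of the Regnase family of RNA-binding proteins, read 8.23, 8.45 and 8.32 against 8.90, 9.37 and 9.47 (difference -0.94, SE 0.21). All arrays with metastasis lay below all arrays without it in these genes, by the rule that chose them. Adgrg1, the adhesion receptor GPR56, stood at 9.97, 9.38 and 9.47 against 10.50, 10.31 and 10.69 (difference -0.80, SE 0.19). The rest were smaller, from -0.26 for the translocon subunit gene Sec61a1 to -0.60 for Igdcc4, with Vars2 (mitochondrial valyl-tRNA synthetase) at -0.39, Mir697 at -0.29, and Heatr5a and Sertad4 at -0.40 each. The Mir697 probe set reads the gene's transcript and not the mature miRNA.

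**Figure D2:**
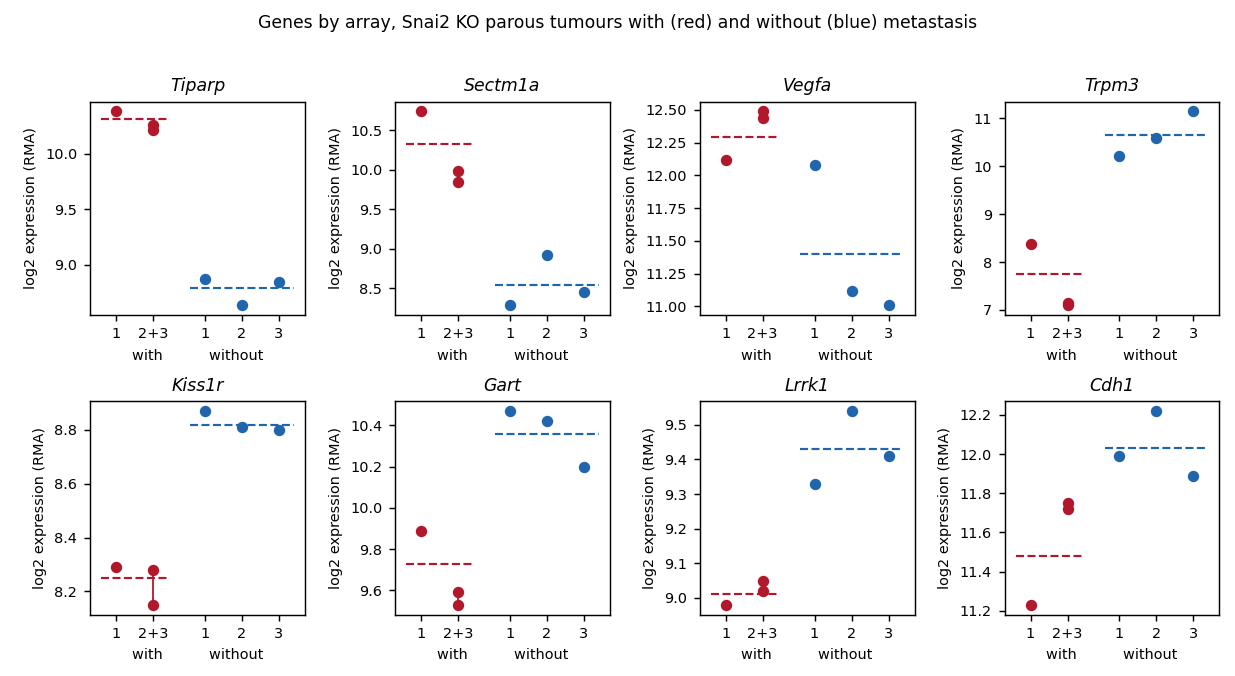
Log2 expression (RMA, vertical axis, not starting at 0) of 8 genes in each of the 6 arrays; red points are tumours with metastasis, with arrays 2 and 3 at one position as one sample, blue points those without, and dashed lines the means over 2 and 3 samples. Tiparp and Trpm3 are separated by more than 1 log2 unit at their closest points, Cdh1 by much less, and the highest Vegfa value without metastasis (12.08) almost reaches the lowest with it (12.12).

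Some of these genes, picked without a stated rule, and Cdh1 were read in the WT tumours, all from mice with metastasis. In the WT parous group, Tiparp was 9.12 ± 0.28 (SD, n = 4), with a range of 8.73 to 9.38 that lies below all KO parous arrays with metastasis. Sectm1a was 7.80 ± 0.47 (SD, n = 4), and its range of 7.30 to 8.42 was also below those 3 arrays. Trpm3 ranged from 8.25 to 10.81 and Kiss1r from 8.40 to 8.69, between the 2 KO parous groups for Kiss1r. Cdh1 ranged from 11.52 to 11.96. The 4 WT nulliparous tumours ranged from 7.88 to 9.79 for Tiparp, 8.92 to 10.21 for Sectm1a, 6.97 to 7.79 for Trpm3 and 8.55 to 8.86 for Kiss1r. Sectm1a there overlapped the metastatic KO parous arrays, and Trpm3 lay below every KO parous array without metastasis. The single KO nulliparous tumour with metastasis read 9.28 for Tiparp, 10.58 for Sectm1a, 8.82 for Trpm3 and 8.95 for Kiss1r, and the 3 KO nulliparous tumours without metastasis ranged over 8.80 to 9.02, 7.08 to 8.66, 10.26 to 11.25 and 8.51 to 8.91. In KO nulliparous mice, Tiparp, Sectm1a and Trpm3 thus lay outside the range of the tumours without metastasis, in the same direction as in parous mice. Kiss1r lay outside it in the opposite direction. The separation in parous mice was fixed by the rule that chose these genes, and the nulliparous side rests on 1 array. Other genes of that set went both ways in nulliparous mice. Gdap10 and Gart, for example, had the parous direction, and Esd and Thoc1 the opposite one. Genotype and metastasis cannot be told apart from the WT tumours, since none came from a mouse without metastasis.

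The EMT list held Snail, Zeb and Twist factors, mesenchymal genes and epithelial regulators. Of its 25 measured members 18 lay below 0 with metastasis and 7 above, with a median of -0.21, beside -0.03 over all genes. Without tumour 2 of the group lacking metastasis the median was -0.01. Cdh1, which Snail factors repress, read 11.23, 11.75 and 11.72 with metastasis and 11.99, 12.22 and 11.89 without, so it was lower in every metastatic array. The log2 difference was -0.55 (SE 0.15, unadjusted p 0.00343), or 1.47-fold, and it was -0.30 without metastatic tumour 1. Chromosome 8, which holds Cdh1, was low as a whole in metastatic tumour 1, as described with the chromosomes. The part of that shift in the Cdh1 difference was not tested.

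Of the EMT list, Snai1, Zeb1, Zeb2, Vim and Fn1 are given as known members of the programme outside the rule for named genes. Twist1 read 7.07, 6.99 and 6.82 against 7.24, 7.32 and 7.64 (difference -0.42, unadjusted p 0.0211), and the calcium-binding protein gene S100a4 had a difference of -0.41 (unadjusted p 0.0329), or -0.19 without tumour 2 lacking metastasis. Snai1 (-0.34), Zeb1 (-0.04) and Zeb2 (-0.33) overlapped between the groups, and Zeb2 was 0.16 without that tumour. Vim, the mesenchymal filament vimentin, was bright in all 6 tumours and stood at 13.14, 13.45 and 13.48 against 13.18, 13.34 and 12.13, with tumour 3 without metastasis low. Fn1, fibronectin, was high in tumour 2 without metastasis alone, at 12.76 against 10.80 to 11.05 in the other arrays. Spock1 was the member with the smallest p above 0 (difference 0.22, unadjusted p 0.160).

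Genes named for their part in metastasis mostly followed the same tumour. Of 33 measured metastasis-associated genes 27 lay below 0, with a median of -0.21 that became 0.02 without tumour 2 of the group lacking metastasis. The proteases and their inhibitors had 27 of 33 below 0 and a median of -0.23, which likewise became 0.02. Mmp9, the gelatinase, read 6.77, 6.81 and 6.70 against 7.15, 7.98 and 6.86, and Mmp12, the macrophage elastase, 9.41, 9.19 and 9.24 against 9.65, 8.49 and 7.65. Of 25 integrins 21 lay below 0 (median -0.19), against 15 of 25 and a median of -0.07 without that tumour. Itga3, a laminin-binding subunit, stood at 9.74, 9.95 and 9.87 against 10.11, 10.63 and 10.11 (difference -0.46, unadjusted p 0.0342), and Itga7 had a difference of -0.40 (unadjusted p 0.0350). Without tumour 2 lacking metastasis these differences were -0.29 and -0.25. Of 18 metastasis suppressors 14 lay below 0, Cdh1 among them, with a median of -0.13 that was -0.02 without that tumour. Ndrg1, also a hypoxia gene, had the smallest p above 0 (difference 0.66, SE 0.66, or 0.03 without the pair).

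Hypoxia and glycolysis genes formed the list with the highest median. Of 23 measured members 22 lay above 0 with metastasis and 1 below, with a median of 0.41, and 8 had arrays that did not overlap, all higher, beside 3.08% of all genes. No member passed the test over all genes. Hypoxia-inducible factor (HIF) is stabilised when oxygen is low and induces glucose uptake, glycolysis and angiogenic genes. The list mean was 11.52, 11.92 and 11.88 in the arrays with metastasis and 11.66, 10.99 and 10.98 in those without, so tumour 1 without metastasis lay above metastatic tumour 1 and the groups overlapped. Leaving out a sample moved the median between 0.20 and 0.66. In KO nulliparous mice the list mean had the opposite direction. It was 11.03 in the 1 tumour with metastasis and 11.14 to 11.40 in those without.

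The member genes below, apart from Pdk1, Vegfa and Egln3, were chosen after their values were seen. Ddit4, an inhibitor of mTOR signalling that hypoxia and stress induce, read 11.35, 11.13 and 10.95 against 10.11, 10.01 and 10.12 (difference 1.12, SE 0.50, unadjusted p 0.0446) and was the most cleanly separated. Vegfa, the main angiogenic growth factor, read 12.12, 12.49 and 12.44 against 12.08, 11.12 and 11.01 (difference 0.89, SE 0.38). Pdk1, which keeps pyruvate out of the mitochondrion, read 10.79, 11.01 and 11.00 against 10.73, 9.20 and 10.18 (difference 0.86, SE 0.35, or 0.44 without tumour 2 lacking metastasis). In both of these genes tumour 1 without metastasis was close to metastatic tumour 1. The mitophagy gene Bnip3 read 11.44, 12.07 and 12.12 against 11.40, 10.34 and 10.39, and the collagen prolyl hydroxylase gene P4ha1 ran from 10.69 to 11.05 with metastasis and no higher than 10.64 without. Car9 (8.71, 10.38 and 10.42 against 10.19, 9.64 and 8.33) and Adm (9.13, 11.19 and 11.13 against 10.14, 9.40 and 8.18) were low in metastatic tumour 1, with differences of 0.17 and 0.91 that were -0.67 and -0.11 without the pair. Egln3, a HIF prolyl hydroxylase, was the 1 member below 0 (difference -0.12, and 0.07 without metastatic tumour 1).

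**Figure D3:**
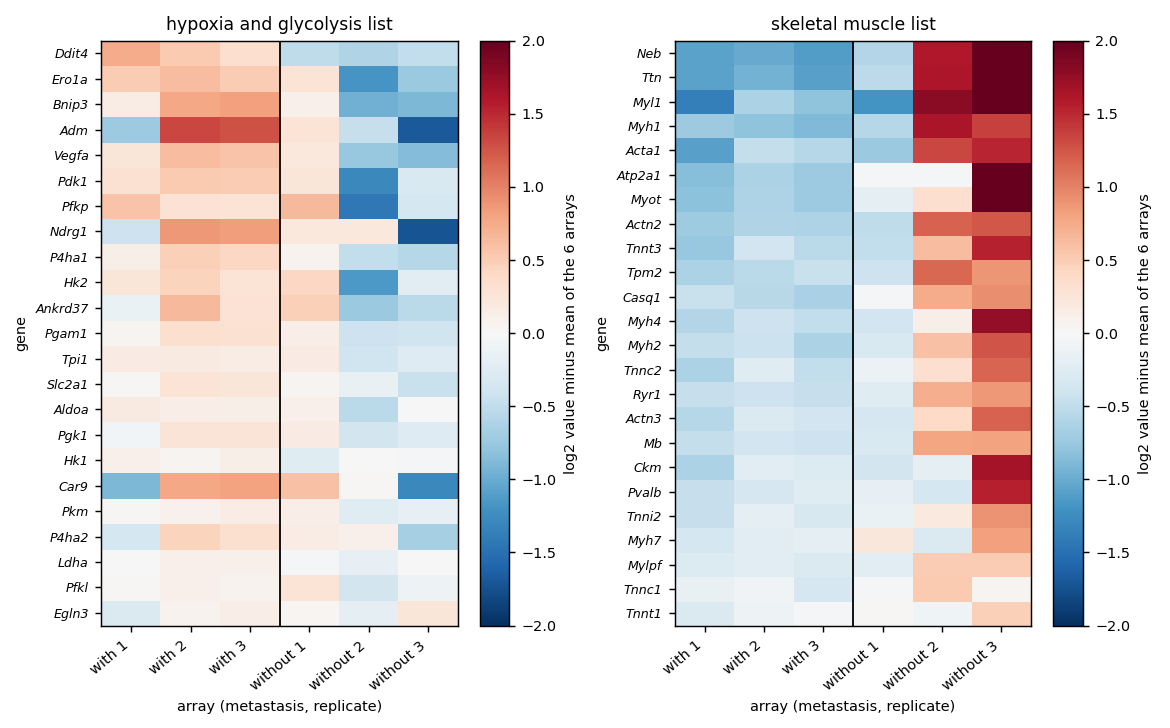
Heat maps of every measured member of the hypoxia and glycolysis list (left) and the skeletal muscle list (right), 1 row per gene and 1 column per array, coloured by the log2 value minus the gene's mean over the 6 arrays. Tumours 2 and 3 without metastasis are low for most hypoxia genes and high for most muscle genes, whereas tumour 1 without metastasis is near the metastatic arrays in both.

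Promoter sequence was examined for the hypoxia and glycolysis list because its members lay on the same side together. HIF is known to bind the core motif ACGTG. The motif was searched on both strands (as ACGTG or CACGT, which overlap in the E-box CACGTG) in the 250 bases before each RefSeq start of GRCm38.p6. It was present in the promoters of 16 of the 22 list genes with an entry (72.7%), and in 4998 of all 27025 genes (18.5%). The list was drawn up from known oxygen-responsive and glycolytic genes, so this share describes the list and not the tumours. Promoters of 3 members whose arrays did not overlap are shown with the motif in capitals, to show a match on each strand and the palindrome. Ddit4 lies on chromosome 10 at chr10:59951771-59952020 (minus strand), P4ha1 at chr10:59323046-59323295 (plus strand) and Bnip3 at chr7:138909507-138909756 (minus strand).
Ddit4: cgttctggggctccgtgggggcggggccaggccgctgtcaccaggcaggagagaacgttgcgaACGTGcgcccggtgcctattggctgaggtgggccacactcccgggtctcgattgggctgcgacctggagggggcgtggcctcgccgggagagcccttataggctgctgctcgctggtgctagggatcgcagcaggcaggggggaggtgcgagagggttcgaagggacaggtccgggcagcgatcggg
P4ha1: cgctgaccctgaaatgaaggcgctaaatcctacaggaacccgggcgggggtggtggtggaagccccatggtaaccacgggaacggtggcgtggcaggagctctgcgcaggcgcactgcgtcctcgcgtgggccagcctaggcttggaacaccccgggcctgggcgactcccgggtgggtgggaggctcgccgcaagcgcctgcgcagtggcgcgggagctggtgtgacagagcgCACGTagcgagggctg
Bnip3: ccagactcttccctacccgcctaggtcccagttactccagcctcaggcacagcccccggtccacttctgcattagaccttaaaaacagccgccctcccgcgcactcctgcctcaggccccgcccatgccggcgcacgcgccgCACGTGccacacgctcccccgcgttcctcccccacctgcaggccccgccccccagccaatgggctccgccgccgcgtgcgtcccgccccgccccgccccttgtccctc
Ddit4 has 1 match on the forward strand, P4ha1 has 1 on the reverse strand, and the palindrome in Bnip3 counts once on each. The RefSeq promoters of Pdk1 and Hk1 hold no match in this window, although both genes had an unadjusted p under 0.05 (differences 0.86 and 0.18).

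Skeletal muscle genes had the lowest median of the lists, with no member passing the test. All 24 measured members lay below 0 with metastasis, with a median of -1.01, and the arrays of 16 did not overlap, all lower, beside 7.04% of all genes. Their mean level was 7.13, 7.32 and 7.24 with metastasis and 7.45, 8.41 and 9.07 without, so the groups did not overlap but tumours 2 and 3 without metastasis carried most of the distance. In WT tumours, all with metastasis, the mean level was 7.03 to 7.99 (parous) and 7.01 to 10.30 (nulliparous). In KO nulliparous mice it was 7.10 in the 1 tumour with metastasis and 7.37 to 8.45 in those without. The median difference in parous KO mice lay between -1.39 and -0.67 when any sample was left out. The giant sarcomere proteins, chosen here after their values were seen, show the pattern. Ttn (titin) read 6.65, 6.77 and 6.64 against 7.20, 9.34 and 9.72, and Neb (nebulin) read 6.79, 6.85 and 6.75 against 7.28, 9.47 and 10.03, with differences of -2.07 (unadjusted p 0.100) and -2.13 (0.0977). Myh7, slow myosin, had the smallest unadjusted p of the list, 0.0596, and overlapped. In bulk tissue, fewer cells of a type and less RNA per cell cannot be told apart. The part of muscle RNA in the other differences was not tested.

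Tumour 2 without metastasis carried most of the fibroblast and macrophage differences and part of the endothelial one. It had the highest mean of the 6 arrays in 25 of the 38 lists, and in 11 of the 18 lists of cell types. All 23 measured fibroblast and matrix genes lay below 0, with a median of -0.36, yet without that tumour the median was 0.07 and 8 of 23 lay below 0. Col3a1 (type III collagen) read 8.96, 9.24 and 9.19 against 9.10, 10.41 and 9.28. Macrophage genes had 18 of 22 below 0 (median -0.19), and 0.11 without it, with the lectin receptor gene Clec7a at 6.53, 6.67 and 6.60 against 7.01, 7.43 and 6.83 (difference -0.51, unadjusted p 0.0407). Endothelial genes had 21 of 22 below 0 with a median of -0.31. Without tumour 2 lacking metastasis 16 of 22 lay below 0 (median -0.12). The arrays of 7 members did not overlap, all lower, beside 7.04% of all genes. The list mean did not overlap either, at 8.13, 8.13 and 8.10 against 8.21, 8.99 and 8.24. Tek, the angiopoietin receptor Tie2, read 6.42, 6.70 and 6.61 against 6.88, 8.18 and 7.54 (0.501 times as high with metastasis, unadjusted p 0.0315), and its log2 difference without that tumour was -0.68. The pericyte gene Cspg4 (NG2) had a difference of -0.52, or -0.28 without that tumour.

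Lymphocyte markers were dim on average, with list means below the array medians of 7.60 to 7.67. The T and NK cell list averaged 6.27, 6.25 and 6.17 against 6.42, 6.30 and 6.30, and the B and plasma cell list 6.63, 6.66 and 6.61 against 6.72, 6.91 and 6.70. Neither list's groups overlapped, but the nearest arrays of the groups were almost level, and RMA compresses dim values. Centred on array medians, the T and NK median of -0.08 became 0.00. Antigen presentation genes had 13 of 16 below 0 (median -0.10). Without tumour 2 lacking metastasis 11 of 16 lay above 0 (median 0.06). The arrays of 1 member did not overlap, beside 7.04% of all genes. This was H2-Eb1, an MHC class II chain of antigen-presenting cells. It stood no higher than 8.38 in any array with metastasis and at 8.97, 8.95 and 9.10 without. The difference was -0.85 (SE 0.30, unadjusted p 0.0137), and leaving out any sample kept it between -1.01 and -0.69. Irf8, a factor of dendritic cells and macrophages on chromosome 8, had a difference of -0.44, or -0.27 without tumour 2 lacking metastasis. Il1b, the inflammatory cytokine, read 6.59, 6.97 and 6.99 against 8.15, 8.38 and 6.97. Interferon response genes had 16 of 27 above 0 and 11 below, with a median of 0.05. Without tumour 2 lacking metastasis 26 of 27 lay above 0 (median 0.32), and without the pair 19 of 27 lay below (median -0.31). Their mean level was 8.73 in metastatic tumour 1, 9.38 and 9.36 in arrays 2 and 3, and 8.76, 9.70 and 8.58 in the tumours without metastasis.

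**Figure D4:**
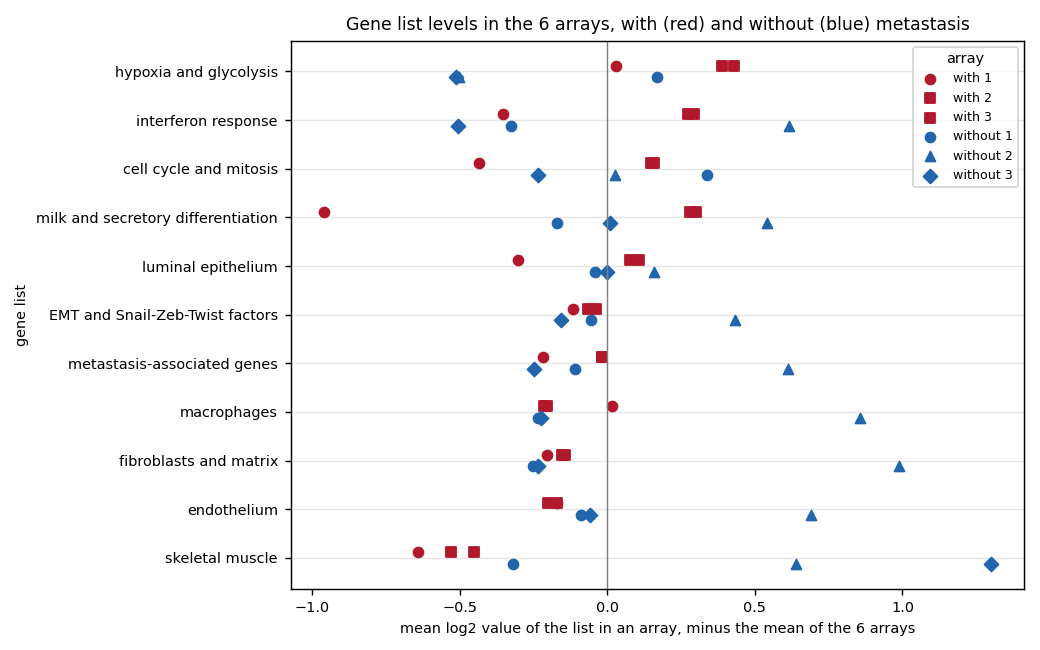
Mean log2 value of 11 gene lists in each array, minus the mean of the 6 arrays (horizontal axis); red symbols are arrays with metastasis and blue those without. Array 2 without metastasis (blue triangles) stands to the right for fibroblasts, macrophages and endothelium, and metastatic array 1 (red circles) to the left for milk genes.

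The epithelial programme differed more between the metastatic tumours than between the groups. Milk and secretory genes averaged 9.85 in metastatic tumour 1 against 11.09 and 11.11 in arrays 2 and 3, with 10.64, 11.35 and 10.82 in tumours without metastasis. Their median was -0.33, and leaving out a sample moved it between -0.81 and 0.08. Wap, whey acidic protein, read 7.54, 9.27 and 9.32 against 9.17, 11.92 and 8.83. Luminal genes had 14 of 20 below 0 (median -0.10), with Esr1 (estrogen receptor) at 7.33, 8.64 and 8.61 against 8.31, 9.21 and 9.52, a difference of -1.04 (SE 0.48, unadjusted p 0.0477) that was -0.39 without metastatic tumour 1 and -1.69 without the pair. Notch1 was low in metastatic tumour 1 alone, at 8.86 against 10.65 to 10.93 in the other arrays.

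Cell cycle genes had 25 of 29 members below 0 and a median of -0.13, which was 0.13 without metastatic tumour 1 and -0.47 without the pair. Rrm2, a ribonucleotide reductase subunit, read 9.82, 10.47 and 10.57 against 11.04, 10.51 and 11.19 (difference -0.74, unadjusted p 0.0122, or -0.40 without metastatic tumour 1). The ERBB receptors and ligands had 12 of 18 below 0 and a median of -0.06. The neuregulin gene Nrg2 was their member with the smallest p, at 10.57, 10.08 and 10.01 against 10.03, 9.09 and 9.68 (difference 0.71, unadjusted p 0.0116, or 0.44 without metastatic tumour 1). Feedback genes and Ets targets of the MAPK cascade, which ERBB2 drives, had 14 of 17 below 0 (median -0.15). Their mean did not overlap, as in 5 of the 38 lists, at 10.43, 10.40 and 10.40 against 10.61, 10.68 and 10.52. The arrays of 1 member of the 17 did not overlap, in the lower direction, beside 7.04% of all genes. Etv4, an Ets factor of that list, read 8.44, 8.05 and 8.19 against 8.88, 8.99 and 8.86 (difference -0.63, SE 0.26, unadjusted p 0.0292). The TGF-beta list had 20 of 30 below 0 (median -0.08) and the Wnt and Notch list 26 of 30 (median -0.10). Over all genes 61.1% lay below 0, with a median of -0.03.

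Whole chromosomes differed between single tumours. For each expressed gene the deviation of a tumour from the 17-sample mean was taken, and the median over a chromosome's genes is called its level. Metastatic tumour 1 had chromosome 14 at 0.40 and chromosome 8 at -0.32. The averaged pair had -0.45 in the last of 4 windows of about 100 genes along chromosome 16. It also had chromosome 4 at -0.22, a level not far from those of most other samples. Chromosome 4 was at -0.13 in metastatic tumour 1 and at -0.13, 0.15 and -0.17 in tumours 1, 2 and 3 without metastasis. Tumour 2 without metastasis had chromosome 13 at -0.43, and tumour 3 chromosome 12 at 0.31. Tumour 1 without metastasis had no chromosome past 0.2 in either direction. No chromosome was shifted past 0.2 in both metastatic samples.

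In the contrast, chromosome 8 had a median log2 difference of -0.20, with 12.6% of its 653 expressed genes above 0, 42 lower and 0 higher at an unadjusted p under 0.05. Its median difference was 0.00 without metastatic tumour 1 and -0.40 without the pair. Chromosome 14 had a median of 0.14, and -0.07 without metastatic tumour 1, and chromosome 13 had 0.16, and -0.01 without tumour 2 of the group lacking metastasis. In 29 of 120 windows at least 1 of the 5 samples lay past 0.2. In those windows 7.24% of 2861 genes had an unadjusted p under 0.05, against 4.43% of 9077 in the other windows. Those windows were picked on deviations of the same samples, which by itself raises the share, so the 2 shares are no test. Of the 24 genes with the smallest p named above, 20 lay in a window and 7 in such a window, namely Esd and Rab2b (chromosome 14), Gdap10 and Heatr5a (12), Adgrg1 (8), and Gart and St3gal6 (16). Gart had the direction of its window, which was at -0.45 in the pair, and St3gal6 the opposite one. Adgrg1 read 9.38 and 9.47 in the pair and 9.97 in metastatic tumour 1. Chromosome 8 was at 0.07 in the pair and at -0.32 in metastatic tumour 1. The part of the chromosome levels in each gene's difference was not tested.

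**Figure D5:**
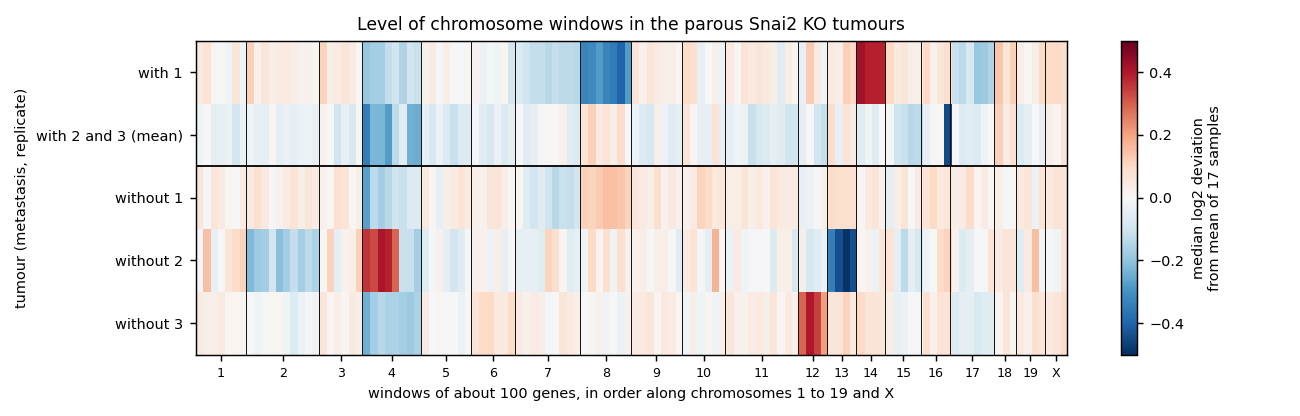
Heat map of the level of 120 windows of about 100 expressed genes (columns, in order along chromosomes 1 to 19 and X) in the 5 tumour samples (rows), coloured by the median log2 deviation from the mean of 17 samples. Blocks of one colour span chromosomes 8 and 14 in metastatic tumour 1, chromosome 13 and part of 4 in tumour 2 without metastasis, and chromosome 12 in tumour 3 without metastasis.

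Leaving out either metastatic sample gave a few calls, each belonging to the remaining one. Without metastatic tumour 1, 2 genes passed (0.01%), both lower and both on chromosome 16. Mrpl39, a mitochondrial ribosomal protein gene, read 10.49 and 10.53 in the pair against 11.27 to 11.46 in the other 4 arrays (difference -0.80, adjusted p 0.00953 in limma). Urb1, a ribosome biogenesis gene, read 8.05 and 7.94 in the pair against 8.88 to 9.02 (difference -0.95, adjusted p 0.0324 in limma). Without the pair, 5 genes passed (0.0251%), all higher. These were the deubiquitinase-like gene Usp54 (12.18 in metastatic tumour 1, 9.86 to 10.31 elsewhere), the cysteine dioxygenase gene Cdo1 (9.81 against 7.21 to 7.82), Gsto2 (8.42 against 6.55 to 6.97), Slc25a30 (11.13 against 9.01 to 9.62) and a predicted gene, with adjusted p from 0.00847 to 0.0492 in limma. The lone metastatic sample is assumed in these fits to vary like the other groups. In each of these genes the metastatic sample left out of the fit lay within or close to the range of the tumours without metastasis. Mrpl39 and Urb1 lie in the chromosome 16 window that was at -0.45 in the pair. Usp54 and Slc25a30 lie in chromosome 14 windows that were at 0.42 and 0.39 in metastatic tumour 1. Cdo1 lies in a chromosome 18 window at 0.06 in that tumour. The part of these window levels in the differences was not tested.

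With the nulliparous KO tumours added and parity in the model, metastasis again gave 0 called genes (0%), a smallest adjusted p of 0.346 in limma and 1006 genes (5.05%) at an unadjusted p under 0.05. The nulliparous arm has 1 tumour with metastasis, so its weight in this fit rests on that array. The difference of the metastasis contrast between parous and nulliparous KO mice gave 20 genes (0.1%) in limma, 2 higher (0.01%) and 18 lower (0.0903%), with 1498 (7.51%) at an unadjusted p under 0.05.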

How the data were processed

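The deposited table holds log2 expression values that the authors made with RMA and the oligo package, per the submitters' processing notes, without a version. For the probes' genome build, none is given in the sources used here. Background correction, quantile normalization and probe summary in RMA compress dim values and remove any shift common to every gene. Of 35556 probe sets, 21789 had 1 gene in the platform annotation. Each of 19938 genes was represented by its brightest probe set, and 19855 matched RefSeq, used for names, chromosomes, gene order and promoter sequence. Arrays give no depth; precision is limited by how many there were. Array medians were 7.60 to 7.67.

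Tests were 2-sided, with lmFit and eBayes of limma 3.58.1 under R 4.3.3 and an adjusted p under 0.05, on 6 group means of 17 samples, with arrays 2 and 3 with metastasis averaged. An exact permutation test of 2 against 3 samples has 10 splits and cannot go below 0.1. On simulated data of this comparison over 19938 genes, 151 of 200 genes with a log2 change of 1 were recovered, with 10 false calls. With a change of 2, 188 of 200 were recovered, with 17 false calls. The simulated noise was normal and independent between genes, without shifted chromosomes or outlying tumours. These counts check the fit and do not give its power in the real data. Lists (777 of 837 entries matched) are described by counts, the median difference and mean log2 values. Chromosome levels leave out the dimmest 40% of genes. The windows, the limit of 0.2 and the list values without tumour 2 lacking metastasis were chosen after the data were seen. The rule for named genes took Snai2, Erbb2, the 12 smallest p in each direction among genes whose arrays did not overlap, the smallest p of each list in each direction, and members of the metastasis and EMT lists with an unadjusted p under 0.05. The members and lists were chosen with earlier results of these data known. The named genes numbered 99; not all are described.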

Additional observations from a re-analysis of the deposited data

Results flagged for a closer look

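The change with metastasis differed between parous and nulliparous KO mice in 20 genes (limma, Benjamini-Hochberg over all genes). All of these differences rest on the single KO nulliparous tumour with metastasis, so no spread between such tumours could be measured. Many of these genes belong to B and plasma cells, including immunoglobulin genes outside the gene lists (Igha, Ighm and members of the Igkv family). Over the 17 measured members of the B and plasma cell list, the median parous minus nulliparous difference was -0.48, beside -0.02 over all genes. KO nulliparous tumours without metastasis averaged 6.62 to 6.74 over that list, and the single one with metastasis 7.45. The immunoglobulin heavy chain gene Igha, chosen after its values were seen, stood at 11.48 there, against 6.70 to 7.47 in KO nulliparous tumours without metastasis and 6.54 to 7.65 in the 6 parous arrays. For members of the gene lists, the parous minus nulliparous difference was -0.97 for Cd79a and -1.34 for Cd79b, both B cell receptor subunits, -1.48 for Ms4a1 (CD20), -1.31 for Mzb1 and -1.41 for Pou2af1, both of antibody-producing cells, and -1.65 for Irf4, a plasma cell factor. It was -1.74 for the immediate early gene Fosb and 1.18 for Ndufa2, a complex I subunit. Within parous mice Ndufa2 read 10.69, 10.60 and 10.50 with metastasis against 10.43, 10.01 and 10.28 without, and Cd79a, Cd79b, Ms4a1, Mzb1, Pou2af1 and Irf4 differed by 0.24 or less on the log2 scale in either direction. Igha differed by -0.57 in parous mice.

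Kiss1r in the 4 WT nulliparous tumours ran from 8.55 to 8.86, and 1 tumour stood apart from the other 3, with a gap of 0.895 of the whole range, past Dixon's 95% critical value for 4 samples. Chance flags about 1 in 20 groups, and this was 1 of 18 checked (9 genes in both WT groups).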

How the results depend on the processing

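The count of 0 genes for metastasis in parous KO mice held with the pair kept apart (1246 genes at an unadjusted p under 0.05, smallest adjusted p 0.245), with either array of the pair alone, the dimmest 40% of genes left out, both scalings, other probe set rules, an intensity trend with robust prior, and fits of fewer groups. Leaving out a sample gave 0 to 5 genes. Deviations of same-numbered arrays correlated at 0.20, 0.40 and -0.37. Arrays 2 and 3 with metastasis are nearly identical and gave about the same values crosswise (-0.41 and 0.42). These correlations therefore cannot show whether the replicate numbers paired the samples. With the replicate number as a block the count was 0, with 1198 genes at an unadjusted p under 0.05. The parity difference of 20 genes became 2 with the dimmest 40% left out, and 12 to 25 when a sample was left out, with 12 both without metastatic parous tumour 1 and without nulliparous tumour 2 lacking metastasis. Probe sets with no gene or several, added after seeing the data, gave 0 calls of 13767 and 964 at an unadjusted p under 0.05.

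Of 99 named genes, 77 kept their direction in every setting run for them, the 24 with the smallest p among them (16 settings at most, since dim genes were not in the fit without the dimmest 40%). Direction turned when a sample was left out, with the lowest and highest differences given, for Snai2 (-0.02 to 0.21), Spock1 (-0.02 to 0.47), Spry2 (-0.10 to 0.43), Cdc25c (-0.08 to 0.29), Egln3 (-0.32 to 0.07), Mvd (-0.79 to 0.00), Irf9 (-0.07 to 0.40), Oasl1 (-0.73 to 0.07), B2m (-0.10 to 0.25), Gzma (-0.02 to 0.11), Cd68 (-0.06 to 0.51), Retnlg (-0.04 to 0.27), Mrgprb2 (0.00 to 0.11), Robo4 (-0.18 to 0.29), Higd1b (0.00 to 0.09), Muc19 (-0.02 to 0.23), Cxcl13 (-0.28 to 1.70), Glycam1 (-1.43 to 0.03) and Slc34a2 (-0.34 to 0.47). Without array 2 of the pair Flt3 was -0.02. With the pair kept apart, and with the replicate block, Robo4 was -0.03 and Slc34a2 -0.07. Centred on array medians, Epb42 and Rplp0 were 0.01. Centring turned the median of 8 of the 38 lists and quantile normalization that of 4, and 13 lists kept their sign in every setting. The cause was not tested.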

Other observations

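Several smaller gene groups gave values that no comparison above describes. Among cytokines, Tslp was dim but did not overlap, at 5.42, 5.46 and 5.48 with metastasis against 5.22, 5.29 and 5.15 without (difference 0.23, unadjusted p 0.00718). Dll1, a Notch ligand, read 10.66, 10.96 and 10.81 against 9.82, 10.29 and 10.11 (difference 0.70, SE 0.42), the opposite direction to Notch1. Klf6, an immediate early zinc finger gene, read 10.81, 10.44 and 10.47 against 10.39, 10.34 and 9.87. Inhbb, the activin beta B subunit, read 8.83, 9.46 and 9.39 against 9.51, 10.32 and 9.47, and Mal, a myelin and lymphocyte protein, 7.27, 7.20 and 7.09 against 7.72, 8.21 and 7.35. None passed the limma test over all genes.

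Cxcl13, the follicular chemokine, stood at 8.30 in metastatic tumour 1 and at 6.18 to 7.18 in the other 5 arrays. The neutrophil and milk gene Ltf (lactoferrin) was also a single-tumour gene, at 8.43 in metastatic tumour 1 against 11.20 to 12.98 elsewhere, and the metastasis suppressor gene Serpinb5 (maspin) at 7.51 there against 8.98 to 11.73. Ltf and Serpinb5 were chosen after their values were seen.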
